A study of Trichoderma reesei with 15 samples.

Results

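In Trichoderma reesei, a filamentous fungus known for its cellulases, 42 of 10879 genes were barely transcribed in every strain that kept the phosphatase gene pp2A and were clearly transcribed in the strain without it. They were chosen from the measured values themselves. Levels are given in CPM, the reads of a gene per 1000000 reads counted in its library. A gene was taken if it had under 5 CPM in each of 11 libraries, at least 5 CPM in each of the 4 libraries of the pp2A deletion, and a lowest deletion value at least 3 times the highest value elsewhere. The high level without pp2A is therefore what defined the 42 genes. It is described below without a test.

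The study sequenced total RNA of mycelium, prepared with a stranded kit after depletion of ribosomal RNA, in strains grown for 96 h at 28 °C in constant darkness with cellulose as carbon source. All strains, controls included, lack mus53, which acts in non-homologous end joining and is deleted to ease gene replacement, and derive from QM6aΔmus53. The parent was sequenced under the tag DD1 (2 libraries) and under the tag DD3 (2 libraries). Δpp2A (4 libraries) and Δpph5 (3 libraries) carry the tag DD1, and Δpph5-2 (4 libraries) carries DD3. The sources used here do not give the meaning of the tags, the number of transformants behind a deletion, or which PP2A subunit is encoded by pp2A. Whether replicates were separate cultures is not stated either, so a p-value measures the spread among these libraries, which may be technical.

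PP2A is a serine/threonine protein phosphatase that in eukaryotes is usually built from a catalytic, a scaffold and a regulatory subunit and counteracts many protein kinases in growth, cell cycle and stress signalling. PP5, the enzyme type behind the names pph5 and pph5-2, belongs to the same superfamily and carries its own protein-binding repeats. Filamentous fungi keep many genes at very low transcript levels in a given medium, among them genes for secondary metabolites, which often lie side by side in the genome and are switched together. The table names genes by systematic identifiers only, and 0 of its 10879 identifiers matched the reference gene table used here, so the products of the 42 genes are not known here and no role is given to any of them.

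Totals ran from 6026511 to 13572121 counts per library. Labels conflicted in 2 groups: Δpp2A replicate 1 carries the type WT, and the Δpph5-2 libraries carry the Δpph5 strain as source name. Titles decided the group. TrG1101W, a candidate for the deleted pp2A gene found from these values, had 0, 0, 0 and 4 counts in the Δpp2A libraries, the first being replicate 1, against 197 to 435 counts in each of the other libraries. Because it was picked from these same values, its counts cannot settle the label conflict of replicate 1. Without Δpp2A replicate 1, the rule would have taken 43 genes. All 42 are among them by construction, since leaving out a library can only relax the rule. Read the other way, 42 of these 43 genes also met the limits in replicate 1, which had no part in choosing the 43. In these genes replicate 1 was thus like the other Δpp2A libraries, as its title says, and unlike the parent libraries.

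The word silent fits the 42 genes only loosely. Of their 462 values in the 11 other libraries, 44 (9.52%) were 0 counts, and 22 of the 42 genes had reads in every library. Their mean over the 11 libraries ran from 0.0502 to 3.25 CPM, with a median of 0.875 CPM. TrD1297W came closest to no transcript, with 5 counts in all 11 libraries together and 0 counts in 7 of them. TrE0572C had 350 counts there and was present in every library. Relative to length, all 42 genes lay in the lower part of the DD1 parent's transcriptome, between percentiles 10.3 and 32.9 of CPM per kilobase over all genes. The limit of 5 CPM in the parent libraries largely set this.

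Together the 42 genes took 0.221% to 0.288% of the counts of a Δpp2A library and 0.00345% to 0.0085% of any other library. Their summed level was 47.2 ± 0.872 CPM (SD, n = 2) in the DD1 parent, 45.3 ± 10.4 CPM (SD, n = 3) for Δpph5 and 42.3 ± 6.81 CPM (SD, n = 2) in the DD3 parent. Δpph5-2 had a sum of 55.1 ± 23.0 CPM (SD, n = 4), while Δpp2A had 2594 ± 313 CPM (SD, n = 4). The Δpp2A mean was 54.9 times that of its parent. The 5 genes with the highest mean held 59.7% to 61.4% of this sum in Δpp2A, and without them the Δpp2A sum was still 25.4 times that of the parent. The other 2984 genes under 5 CPM in the 11 libraries also had a larger sum in Δpp2A, 2218 ± 25.6 CPM (SD, n = 4) against 1420 ± 51.8 CPM (SD, n = 2), which is 1.56 times the parent. The limit of 5 CPM capped these genes in the 11 libraries but not in Δpp2A, so the choice itself favours a larger sum there. How much came with the choice, and the part of a general difference in the 42 genes, were not tested.

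**Figure D1:**
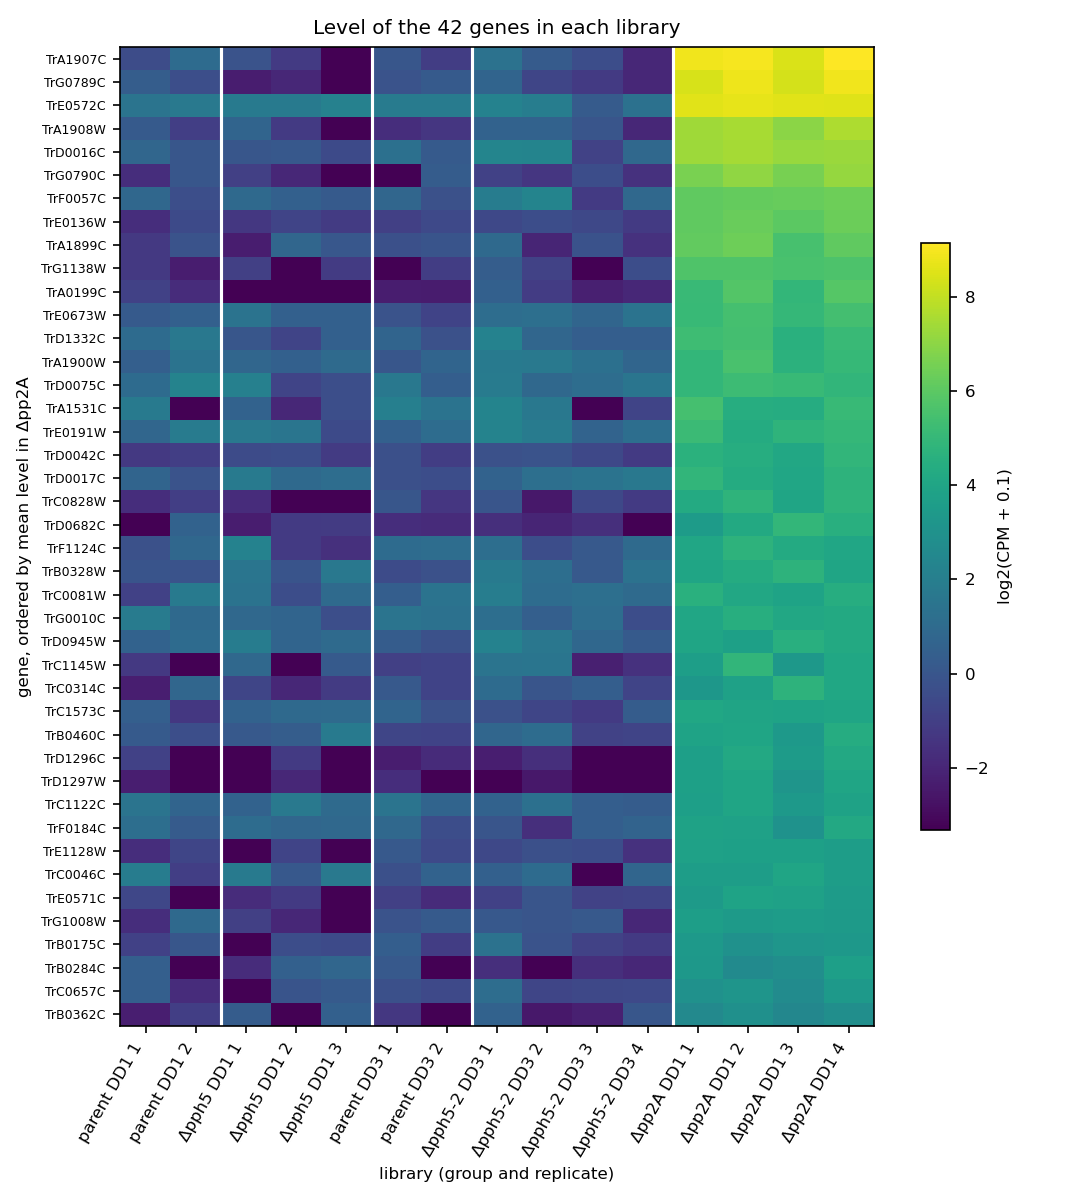
Level of each of the 42 genes (rows, ordered by mean level in Δpp2A) in each of the 15 libraries (columns, by group and replicate), as log2(CPM + 0.1). The 4 Δpp2A columns on the right are brighter than all others in every row, as the rule demands.

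TrG0789C, the longest of the 42 genes (3792 bases), had 330, 449, 320 and 472 CPM in Δpp2A replicates 1 to 4 and 1.18 and 0.707 CPM in the DD1 parent. Over the 11 other libraries it ran from 0 through a median of 0.516 to 1.52 CPM. Its lowest Δpp2A value was 211 times its highest value elsewhere, the widest gap among the 42, and its log2 fold change against the DD1 parent was 8.37 (SE 0.62). In Δpph5 it had 2 counts in 3 libraries. The Δpp2A level was 4665 times that pooled level, with a 95% counting interval of 1291 to 38518 that covers counting error only.

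TrA1907C (2280 bases) had the highest CPM of the 42 genes, at 466, 506, 345 and 565 CPM in Δpp2A against 0.644 and 1.92 CPM in its parent. The 11 other libraries ran from 0 through 0.667 to 2.50 CPM, so the groups were far apart (lowest over highest 138). Its log2 fold change was 8.21 (SE 0.86).

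TrE0572C (741 bases) had 379, 415, 379 and 375 CPM in Δpp2A and 2.69 and 3.23 CPM in the parent. Elsewhere it lay between 1.11 and 4.45 CPM with a median of 3.45 CPM, near the limit of the rule, and was detected in every one of these libraries. Per length it was the most abundant of the 42 genes in Δpp2A, at 522 CPM per kilobase, rank 249 of all genes. Its log2 fold change was 6.72 (SE 0.42).

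TrD0016C (852 bases) had 161, 175, 151 and 154 CPM in Δpp2A and 1.61 and 0.908 CPM in the parent (log2 fold change 6.66, SE 0.77). Elsewhere it ran from 0.445 through 1.05 to 4.99 CPM, the highest value just under the limit of 5 CPM. TrE0136W (600 bases) had 68.3, 78.5, 64.0 and 80.9 CPM in Δpp2A, and no other library exceeded 0.663 CPM (log2 fold change 7.13, SE 0.34). The groups were separated 96.5-fold in TrE0136W and 30.3-fold in TrD0016C. TrF0057C (1119 bases) had 67.8, 72.4, 75.1 and 82.8 CPM in Δpp2A and 0.334 to 4.86 CPM elsewhere (log2 fold change 5.61, SE 0.77).

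Below these the levels fell off quickly. Of the 42 genes, 6 had a mean of at least 100 CPM in Δpp2A, 10 at least 50 CPM and 21 at least 20 CPM, and the median was 20.4 CPM. By separation, 18 genes had a lowest Δpp2A value at least 10 times the highest value elsewhere, and 6 at least 50 times. Per length, 22 of the 42 genes lay above the median of all genes in Δpp2A, and 0 in the parent, where the limit of 5 CPM held them low. At the low end TrC0657C reached 5.19 CPM per kilobase in Δpp2A, rank 7481.

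Close to the limits, TrD0945W just met the ratio of 3 (lowest Δpp2A value 13.4 CPM, highest elsewhere 4.45 CPM), and TrA1966W missed it with 2.93. TrB0362C was the member with the lowest Δpp2A library, at 5.39 CPM, while TrB0430C missed with 4.74 CPM, although its highest value elsewhere was 0.353 CPM. TrG0841C was left out because 1 of the 11 other libraries reached 5.21 CPM, although its mean was 110 CPM in Δpp2A and 0.776 CPM in the DD1 parent. In all, 73 genes met the ratio but had at least 5 CPM in some other library. Of the 3026 genes under 5 CPM in the 11 libraries, 2868 were below 5 CPM in all 4 Δpp2A libraries too.

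**Figure D2:**
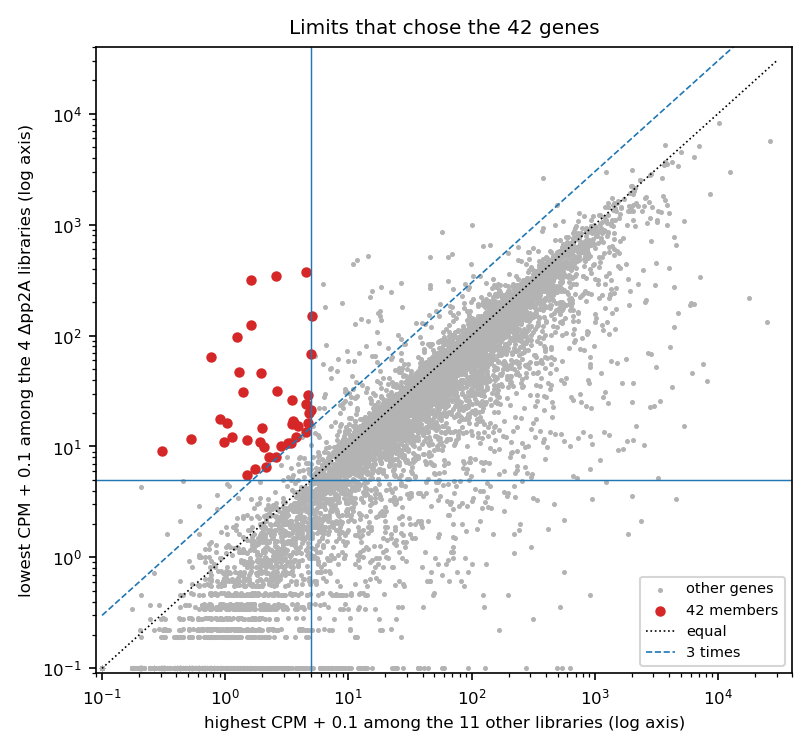
Lowest CPM among the 4 Δpp2A libraries (y) against the highest CPM among the 11 other libraries (x) for every gene, both plus 0.1 on log axes, with the limits of 5 CPM as solid lines and the ratio of 3 as a dashed line. The 42 genes (red) fill the upper left field, from 5.39 CPM up to 375 CPM on the y axis, and many grey genes lie close beyond its edges.

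Against the DD1 parent alone, edgeR's quasi-likelihood test called 39 of the 42 genes higher in Δpp2A, where 7.94% of all 8912 genes tested were called higher and 18.7% were called in either direction. The rule used this contrast, so nothing is read from that count. The fold changes of the 42 genes ran from 2.32 to 8.37 on the log2 scale, with a median of 4.26. The median was -0.03 for all genes tested and 0.32 for the 1018 other tested genes under 5 CPM in the 11 libraries. Those 1018 genes were capped at 5 CPM outside Δpp2A only. The 3 genes without a call were TrA1531C, TrB0284C and TrC0046C, named after their values were seen. The DD1 parents had 3.44 and 0 CPM in TrA1531C, 1.29 and 0 CPM in TrB0284C, and 3.65 and 0.404 CPM in TrC0046C. Among the genes called, TrD0682C, picked after its values were seen, had 0 and 1.41 CPM in these parents. The part of parent spread in the missing calls was not tested.

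The 42 genes had larger coefficients of variation among the Δpp2A libraries than other genes of like level, a description without a test. This coefficient of variation over the 4 libraries had a median of 20.5%. In the range from 10 to 50 CPM it was 23.5% for 28 of the 42 genes and 10.9% for 2884 other genes with at least 5 CPM in each Δpp2A library. TrC1145W was the most variable, with 12.8, 29.0, 10.04 and 17.3 CPM, and TrG1138W the steadiest, with 51.6, 51.5, 46.9 and 50.1 CPM. In 36 of the 42 genes the highest Δpp2A library was still less than 2 times the lowest.

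The libraries also differed in a way many of the genes had in common. Relative to each gene's own mean, the median over the 42 genes was 94.7%, 108%, 82.4% and 109% in Δpp2A replicates 1 to 4, and over the 7157 other genes with at least 5 CPM in each of these libraries it was 100%, 100%, 98.5% and 100%. Replicate 3 held the lowest value in 26 of the 42 genes (61.9%) and in 35.5% of the other genes. Replicates 2 and 4 both lay above replicates 1 and 3 in 17 of the 42 genes (40.5%), against 21.1% of the other genes. These were also the shallower libraries, with 7862390 and 8344653 counts against 11134647 and 10751762, and the part of depth in this was not tested. TrC0314C, the shortest gene at 171 bases, was instead highest in replicate 3, with 9.70, 13.99, 26.6 and 17.1 CPM.

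**Figure D3:**
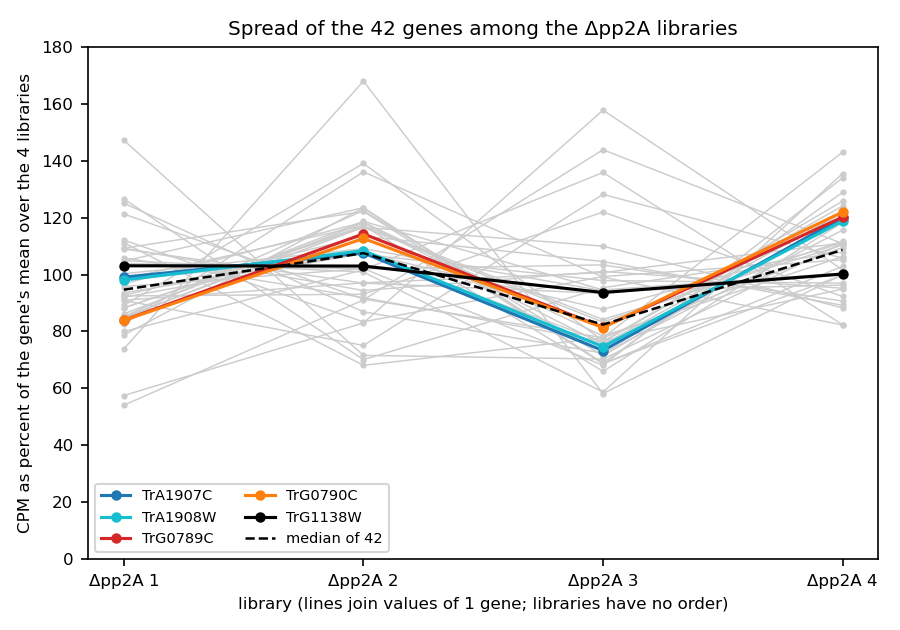
CPM of each of the 42 genes in each Δpp2A library as a percentage of that gene's mean over the 4 libraries (grey), with the median of the 42 genes (dashed) and 5 genes in colour; lines join values of a gene and imply no order. TrA1907C and TrA1908W lie on top of each other, as do TrG0789C and TrG0790C, with low values in replicate 3 and high values in replicate 4, while TrG1138W stays near 100%.

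Some of the 42 genes had neighbouring identifiers. An identifier consists of a letter (A to G), a running number and W or C, whose meaning the sources used here do not state, so adjacent numbers are taken only as adjacent names. Of the 42 genes, 12 (28.6%) had another of the 42 at the next number, in 6 pairs, while 0.772% of all 10876 systematic identifiers stood next to one of the 42. No further genes joined within 5 numbers, so there were pairs and no longer runs. Where such genes overlap, reads of one may be counted for the other, since the sources used here do not say whether counting used strand; this was not tested.

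In the pair TrA1907C and TrA1908W, the levels of both genes varied in parallel among the Δpp2A libraries. TrA1908W (1608 bases) had 164, 181, 125 and 198 CPM there and at most 1.52 CPM elsewhere. The ratio of both genes per length stayed between 1.95 and 2.01 (coefficient of variation 1.43%, n = 4), although each gene alone varied by 19.8% and 18.9%. TrG0789C and TrG0790C did the same: TrG0790C (1800 bases) had 99.2, 133, 96.3 and 144 CPM in Δpp2A, at most 1.14 CPM elsewhere, and the ratio per length ran from 1.55 to 1.60 (coefficient of variation 1.16%, n = 4).

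The other pairs were looser. TrA1899C and TrA1900W had a ratio per length of 1.09 to 1.45, and TrD1296C and TrD1297W of 0.518 to 0.689. TrD1296C had 12.9, 18.1, 11.5 and 18.6 CPM in Δpp2A, and TrD1297W had 13.5, 16.03, 9.02 and 16.2 CPM. Both were near 0 elsewhere, at up to 0.430 and 0.205 CPM. In the last pairs the partners differed widely in level. TrD0016C was 6.35 to 10.3 times as abundant per length as TrD0017C, and TrE0571C reached 0.0178 to 0.0231 of the level of TrE0572C. TrE0571C had 10.9, 14.9, 14.04 and 11.3 CPM, and TrD0017C had 28.9, 20.1, 16.7 and 26.7 CPM in Δpp2A. The ratio was not computed for members with distant identifiers, and some of these also varied alike. For example, TrG0789C was at 84.0%, 114.3%, 81.5% and 120.2% of its mean in Δpp2A replicates 1 to 4. TrD1296C was at 84.7%, 118.2%, 75.5% and 121.6%. Whether parallel levels are particular to adjacent members was not tested.

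**Figure D4:**
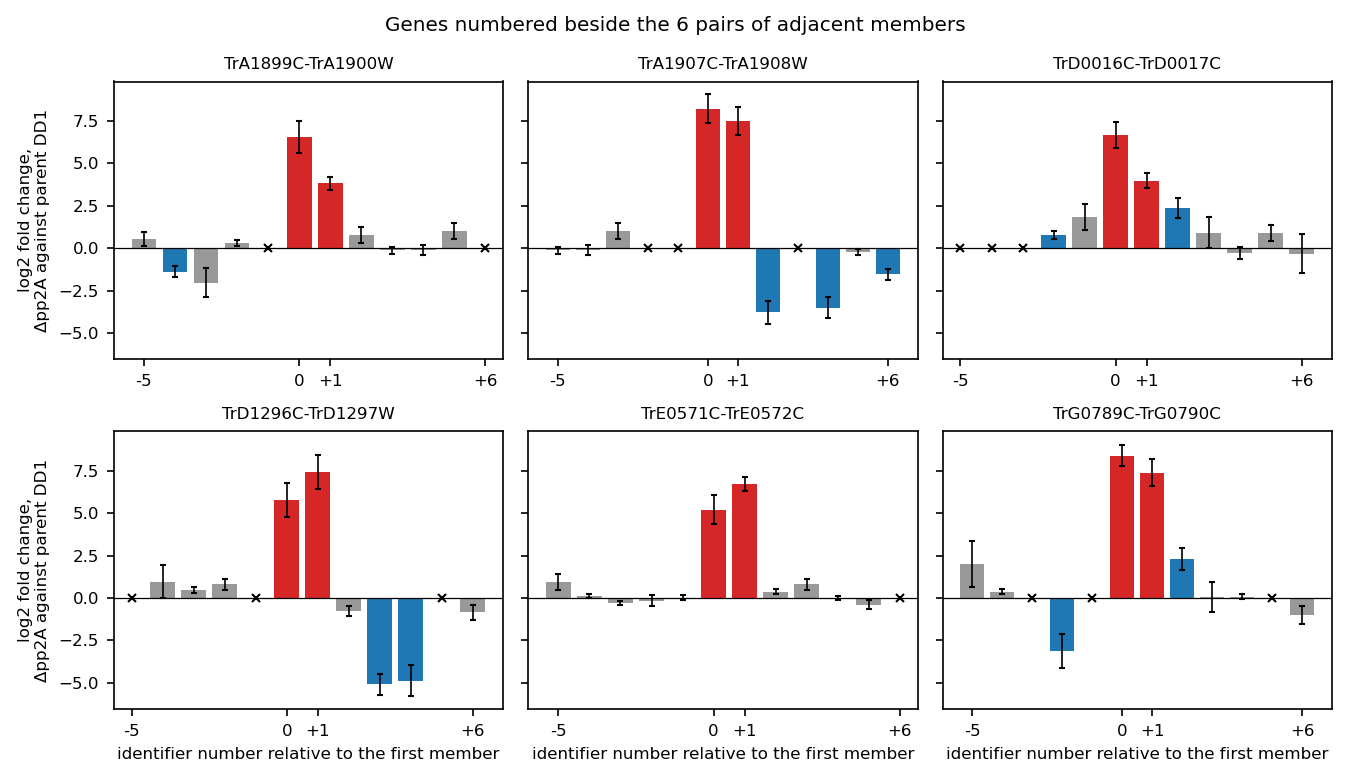
Log2 fold change of Δpp2A against the DD1 parent with its standard error (edgeR) for the genes numbered around each of the 6 pairs of adjacent members, from 5 numbers below the first to 5 above the second. Red bars are members, blue bars other genes with an adjusted p under 0.05, grey bars genes without a call, and crosses genes with too few reads to be tested; of the 42 other genes tested in these windows, 3 rose and 7 fell.

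Genes beside the 42 that were not chosen by the rule were also often higher. Of the 72 such neighbours, 56 had enough reads for the test, and 18 of these (32.1%) rose in Δpp2A against the DD1 parent by edgeR, where 7.54% of all 8870 tested genes outside the 42 rose. Of the neighbours 2 (3.57%) fell, against 10.8% of those genes. The neighbours' median log2 fold change was 0.69. These neighbours were counted after values had been seen. The filter on low counts used the Δpp2A libraries too, so a neighbour low elsewhere could be tested through its Δpp2A level. Of the 18, 4 had under 5 CPM in each other library. Without the filter, 17 of 72 neighbours (23.6%) rose, against 5.89% of the genes outside the 42. With pairs and risen neighbours together, 26 of the 42 genes had an adjacent gene that was a member or rose, and 16 had neither; of all 10876 systematic identifiers, 12.4% had such an adjacent gene.

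The most abundant of these neighbours was TrE0135C (1731 bases), next to TrE0136W. It had 599, 698, 527 and 742 CPM in Δpp2A, 14 and 8.28 CPM in the DD1 parent and 3.95 to 14.4 CPM over the 11 other libraries (log2 difference 5.51 with SE 0.53 and edgeR adjusted p = 6.17e-05). It missed the rule through its level elsewhere.

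TrD1331C (768 bases), next to TrD1332C, rose from 3.85 ± 2.26 CPM (SD, n = 2) to 163 ± 25.9 CPM (SD, n = 4), a log2 difference of 5.12 with SE 0.60 (edgeR adjusted p = 0.00022). TrC0827C (5205 bases), next to TrC0828W, rose from 6.79 ± 1.39 to 168 ± 24.6 CPM (SD, n = 2 and 4; log2 difference 4.33 with SE 0.57 and edgeR adjusted p = 0.000495). Beside TrG0790C, TrG0791C rose from 4.46 ± 4.02 to 28.3 ± 4.56 CPM (SD, n = 2 and 4; log2 difference 2.30 with SE 0.64 and edgeR adjusted p = 0.0274). These are some of the 18, chosen after their values were seen.

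Within 5 numbers of the 6 pairs, 42 genes outside the members were tested by edgeR, of which 3 (7.14%) rose and 7 (16.7%) fell, against 7.54% and 10.8% of all tested genes outside the members. The 3 that rose were TrD0014C, TrD0018W and TrG0791C. Around TrE0571C and TrE0572C, 0 genes were called. Of the 7 that fell, only TrA1909W stood directly beside a pair. TrA1909W (804 bases), the number after TrA1908W, went from 97.2 ± 62.8 CPM (SD, n = 2) to 8.96 ± 7.03 CPM (SD, n = 4), a log2 difference of -3.78 with SE 0.66 (edgeR adjusted p = 0.00275). TrD1300W, 3 numbers after TrD1297W, went from 1302 ± 403 CPM (SD, n = 2) to 55.4 ± 66.4 CPM (SD, n = 4), a log2 difference of -4.88 with SE 0.92 (edgeR adjusted p = 0.0042). Both were named after their values were seen.

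The rule also fixed that the 42 genes were low in the other strains, but not how these strains differed below 5 CPM. In the comparisons of Δpph5 and Δpph5-2 with the parent of the same tag, the Δpp2A libraries entered the estimate of spread and the filter on low counts. Without them 31 of the 42 genes passed the filter, so the other 11 were tested only because of their level in Δpp2A. With so few calls among all genes, a count of 0 among the 42 says nothing particular to them. In Δpph5, 0 of the 42 genes were called by edgeR, where 0.0112% of all genes tested were, and 0 by DESeq2. At an unadjusted p under 0.05, 6 of the 42 (14.3%) and 6.43% of all genes were found. In a fit without the Δpp2A libraries it was 1 of the 31 genes still tested. The median log2 fold change of the 42 was -0.19, with 18 above 0, beside 0.01 for all genes. The sign of that median turned without DD1 parent replicate 1, to 0.37, and in a fit without the Δpp2A libraries, to 0.06 over the 31 genes still tested. At these low counts the median standard error was 0.90.

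In Δpph5-2, edgeR called 0 of the 42 genes, where it called 0.0112% of all genes tested, and DESeq2 called 0. An unadjusted p under 0.05 was reached by 5 of the 42 (11.9%) and by 8.64% of all genes. In the fit without the Δpp2A libraries it was reached by 4 of the 31 genes still tested. The median log2 fold change was 0.18, with 25 above 0, beside 0.01 for all genes, and it was 0.00 without Δpph5-2 replicate 1 and 0.62 without DD3 parent replicate 1. Between the parents of DD3 and DD1, 0 of the 42 genes were called by edgeR, where 0.0% of all genes were, 0 by DESeq2 and 0 at an unadjusted p under 0.05, which 1.82% of all genes reached. The responses of Δpph5-2 and Δpph5 did not differ past the threshold in any of the 42 genes by edgeR, where 0.0224% of all genes were called, and 5 of the 42 (11.9%) had an unadjusted p under 0.05, against 3.34% of all genes. In this difference 31 of the 42 genes (73.8%) were above 0, against 52.9% of all genes tested. The difference was fitted only with all libraries, and the genes that passed the filter only through Δpp2A are included. Genes are not replicates of a strain, so no difference between the 2 deletions is read from these shares.

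The gene closest to a call outside Δpp2A was TrE0673W (1590 bases) in Δpph5-2. It had 2.06, 2.21, 1.56 and 2.55 CPM there against 0.822 and 0.476 CPM in the DD3 parent, so these groups did not overlap, a log2 difference of 1.62 with SE 0.33 (edgeR adjusted p = 0.279). In Δpp2A it had 33.2, 43.9, 31.3 and 42.1 CPM. In Δpph5 the lowest adjusted p was that of TrG0789C, at 0.102, 0.166 and 0 CPM in Δpph5 against 1.18 and 0.707 CPM in the DD1 parent (log2 difference -3.35 with SE 0.96 and edgeR adjusted p = 0.561). TrA0199C had 0 counts in all 3 Δpph5 libraries and 0.430 and 0.202 CPM in the parent, and its Δpp2A level was at least 350-fold higher than in Δpph5, taking 3 counts over the group as the floor.

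**Figure D5:**
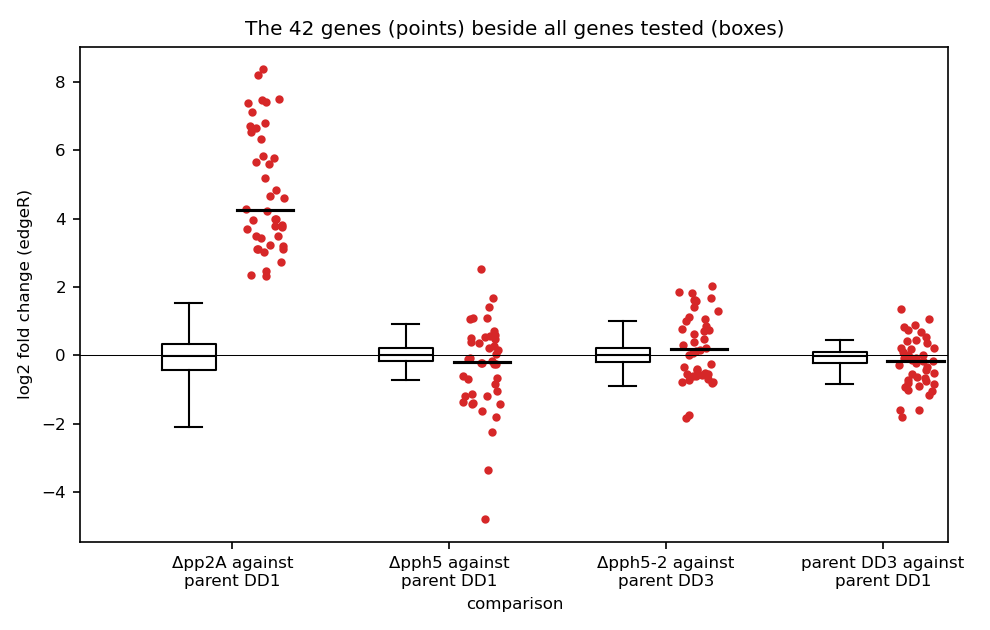
Log2 fold changes from edgeR of the 42 genes (red points, black bar at their median) in 4 comparisons, beside all 8912 genes tested (box from the lower to the upper quartile with the median, whiskers from the 5th to the 95th percentile). The points lie between 2.32 and 8.37 for Δpp2A, which the rule fixed, and scatter around 0 in the comparisons without Δpp2A, more widely than the boxes.

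What little signal there was outside Δpp2A was uneven among libraries. Δpph5-2 replicate 1 had a summed level of 85.0 CPM over the 42 genes, above the 34.5 to 60.9 CPM of the 10 other libraries, and it was the highest of the 11 in 18 of the 42 genes (42.9%), against 14.4% of the other 2589 genes with some reads but under 5 CPM. Examples are TrD0016C with 4.99 CPM and TrA1531C with 4.88 CPM. This library also had the largest sum of those other low genes, 1849 CPM against 1283 to 1796 CPM, and the highest TMM scaling factor of the 11, 1.06. In Δpp2A these values were higher still, at 2180 to 2233 CPM and 1.13 to 1.15, but there the limit of 5 CPM did not cap the other low genes. The part of such general differences in the 42 genes was not tested.

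The length of the 42 genes had a median of 1113 bases, the same as for the whole table. It was 664 bases for the other 2984 genes under 5 CPM in the 11 libraries. For the 7199 genes with at least 5 CPM in each Δpp2A library it was 1356 bases. The limit of 5 CPM takes no account of length, so longer genes reach it more easily. W ended 14 identifiers and C 28 (66.7%), against 50.7% with C in the table. All 7 letters occurred, from 3 genes with F (7.14%) to 9 with D (21.4%), against 11.1% and 13.3% of all identifiers. Within 100 numbers of either end of a letter's series were 11 of the 42 (26.2%), against 12.9% of all identifiers and 19.2% of the other genes of low level. Of these 11, 8 stood within the first 100 numbers. They were 19.0% of the 42, against 6.44% of all identifiers and 9.36% of the other genes of low level.

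Applied to the other groups in place of Δpp2A, the same rule took 0 genes in Δpph5, 0 in Δpph5-2, and 0 in the parent of either tag, also when the Δpp2A libraries were left out. Turned around, the rule asked for under 5 CPM in each Δpp2A library, at least 5 CPM in each of the 11 libraries and the same ratio. It then took 6 genes, among them the candidate TrG1101W. With another group as the low one, it took 1 gene for Δpph5, 1 for Δpph5-2 and 0 for the parent of either tag.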

How the data were processed

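The table deposited by the authors holds raw read counts per gene and library, and gene lengths in bases, of which 94.7% are multiples of 3. The submitters' processing notes list HISAT2 2.2.1 but state no role for it, and the sources used here do not give counting settings, genome build or annotation. Columns were matched to samples by the label that names them, and groups came from titles. CPM used library totals. The members, lists and features described were chosen with earlier results of these data known. Full values are given for the members with the highest mean or separation, the steadiest and most variable, those at the limits, and the pairs, the last chosen after values were seen.

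The test was that of edgeR 4.0.16 under R 4.3.3 (filterByExpr over 5 groups, 8912 genes, TMM, robust quasi-likelihood, 1 mean per group over 15 libraries, Benjamini-Hochberg over all genes tested, calls at an adjusted p under 0.05). The standard error is the fold change divided by the root of F. All 42 members passed the filter, and 31 did without the Δpp2A libraries. TMM lowers Δpp2A levels relative to CPM. DESeq2 1.42.0, other scalings, filters and left-out libraries were alternatives.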

Additional observations from a re-analysis of the deposited data

Results flagged for a closer look

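Within the 2 groups of 4 libraries, each of the 42 genes and their sum were examined for a library far from the others, 86 sets of values in all. Chance gives about 1 in 20, or 4.3, for normal values; counts near 0 are not normal. In all, 8 sets held such a library. In Δpp2A, TrC0046C was at 16 CPM in replicate 3 (12.1 to 12.2 CPM in the others), TrE0572C at 415 CPM in replicate 2 (375 to 379 CPM), and TrE1128W at 12.0 CPM in replicate 4 (13.5 to 13.7 CPM). In Δpph5-2 all values were low: TrC0657C was at 2.06 CPM and TrD1332C at 4.45 CPM in replicate 1, TrE0571C at 0.884 CPM and TrD1297W at 0.0737 CPM (1 count) in replicate 2, and TrG1008W at 0.165 CPM (2 counts) in replicate 4, below the others. Groups of 2 and 3 libraries were not examined.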

How the results depend on the processing

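The number of genes the rule takes follows its limits: 27 with 2 CPM in place of 5, of which 19 are among the 42, 18 with a ratio of 10, but 47 with a ratio of 2 and 56 with 10 CPM. With TMM-scaled levels or DESeq2 size factors it was 34, of which 33 are among the 42. Leaving out a library gave 42 to 48. It can only relax the rule, so that all 42 stayed each time was fixed in advance. The members called in Δpp2A ranged from 35 to 42 over all alternatives (37 with the replicate block), and those called in Δpph5, in Δpph5-2 and between the parents were 0 under each, also in a fit without the Δpp2A libraries, added after seeing the data. Where a left-out library leaves a parent with 1 library, that library is assumed to vary like the other groups. Neighbours called higher ranged from 13 to 25 (14 with the replicate block; 25 with library size only, where 15.3% of genes outside the 42 were called higher). Replicate numbers are shared between groups, but only 2 of them with a parent, and no label says what they mark. Deviations of same-numbered libraries correlated across genes at -0.205 and 0.171 for Δpp2A and its parent, -0.754 and -0.602 for Δpph5, -0.237 and 0.272 for Δpph5-2, and 0.778 between the parents, so the sign varied and the numbers are not taken as pairs. Counts of a few reads limit every statement on the 11 other libraries.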
